A study of Drosophila melanogaster with 35 samples.

Results

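HP1 binding was compared with Su(var)3-9 binding in untreated Kc167 cells, an established Drosophila melanogaster line of embryonic origin. The comparison rests on 7 of the 35 arrays of the series, chosen by their titles: 4 arrays of a Dam-HP1 fusion and 3 arrays of a Dam-Su(var)3-9 fusion. Cells of both groups were grown alike and received no knock-down. Each fusion held the full-length protein behind the bacterial adenine methyltransferase Dam and a Myc tag and came from a transfected plasmid, whose promoter the labels do not name. Cells transfected with the Dam plasmid alone supplied the other colour on every array, so each value is a log ratio of Dam-fusion over Dam at 1 cDNA probe, whose base was not stated and is read here as 2. Means with an SD are those of the arrays, and differences with an SE are HP1 minus Su(var)3-9 from a limma model with a term for the dye. The untreated fusions HP3 (4 arrays), HP4 (4), HP5 (4), HP6 (3) and Jra (3) were used to describe the same probes. The knock-down arrays entered only the common fit. The labels do not say that replicates were separate cultures, so the p-values measure the spread between arrays, which may be technical.

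HP1 is a structural protein of heterochromatin whose chromodomain binds histone H3 methylated at lysine 9. Su(var)3-9 is a methyltransferase that places this mark and is known to contact HP1. In flies the mark, HP1 and Su(var)3-9 meet in the pericentric regions, while the small chromosome 4 is known for HP1 and for another methyltransferase, Setdb1, whose gene is eggless. DamID leaves adenine methylation near the sites that a fusion visits. Each array was centred on its median, so a positive ratio means more methylation by the fusion, relative to free Dam, than at the median probe.

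The arrays were not of equal scale or likeness. The median absolute deviation of the log2 ratios was 0.299, 0.435, 0.236 and 0.229 on the HP1 arrays and 0.421, 0.379 and 0.367 on the Su(var)3-9 arrays. Across all probes, which are no independent replicates, pairs of HP1 arrays had Spearman correlations of 0.152 to 0.465, and pairs of Su(var)3-9 arrays 0.791 to 0.809. HP1 replicates 2 and 4 stood apart in different ways. Replicate 2 had Spearman correlations of 0.615 to 0.632 with the Su(var)3-9 arrays and 0.152 to 0.411 with the other HP1 arrays. The 0.152 was its correlation with replicate 4. HP1 replicate 4 had 0.152 to 0.208 with the other HP1 arrays and -0.027 to 0.058 with the Su(var)3-9 arrays. Su(var)3-9 replicate 1 held a few extreme values, from -8.17 to 10.83. The main counts and several genes are given with and without these arrays. Counts by library, of unnamed probes and of some lists are given with all arrays only.

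HP1 and Su(var)3-9 differed in both directions. In the limma model 521 of 9934 probes (5.24%) were higher for HP1 and 224 (2.25%) were lower, at an adjusted p under 0.05, and 2360 passed at an unadjusted p under 0.05. With the arrays scaled to the same median absolute deviation, 539 (5.43%) were higher and 358 (3.6%) lower. The 425 probes higher in both scalings (4.28%) and the 206 lower in both (2.07%) are called higher and lower from here on. Higher calls made up 69.9% of the calls in the unscaled fit and 60.1% in the scaled one. With quantile normalization 379 were higher and 420 lower, so that their share was 47.4%, and 336 of the 425 higher calls and all but 1 of the lower calls were among them. With probes averaged per gene, 325 of 7705 genes (4.22%) were higher and 158 (2.05%) lower. All 4 HP1 arrays lay above all 3 Su(var)3-9 arrays at 1387 probes (14.0%) and below them at 709 (7.14%).

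The number of calls moved with single arrays. Without Su(var)3-9 replicate 1 there were 158 higher and 82 lower calls, without replicate 2 of that protein 262 and 131, and without replicate 3 there were 229 and 124. Leaving out HP1 replicate 1 gave 253 and 107, leaving out HP1 replicate 3 gave 192 and 78, and leaving out HP1 replicate 4 gave 294 and 136. Without HP1 replicate 2 the calls came to 629 and 460. Those counts are of calls in both scalings. In the unscaled fits alone, 146 of the 425 higher calls passed in all 7, and 38 of the 206 lower calls did. Where a single gene is said below to keep or lose its call without an array, the unscaled fits are meant. A fit on the 7 arrays alone called 207 higher and 38 lower in both scalings.

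The calls fell into 3 main classes, set by whether each protein stood above 0, called bound, at an adjusted p under 0.05. As 0 is the median of each array, bound means above the median probe. HP1 bound 842 probes (8.48%) and Su(var)3-9 bound 1569 (15.8%). Means below 0 passed at 293 probes for HP1 (2.95%) and at 1725 for Su(var)3-9 (17.4%). Of the 425 higher probes, 124 were bound by HP1 and not by Su(var)3-9, with a median of 1.06 for HP1 and -0.22 for Su(var)3-9. Another 280 were not bound by HP1 and lay below 0 for Su(var)3-9, with medians of 0.01 for HP1 and -1.17 for Su(var)3-9. A further 14 were bound by both. Of the 206 lower probes, 179 were bound by Su(var)3-9 and not by HP1, with medians of -0.17 for HP1 and 0.89 for Su(var)3-9. The class bound by HP1 alone counted 61 and 64 probes without HP1 replicate 1 or 3, and 65 and 67 without Su(var)3-9 replicate 1 or 3. The class bound by Su(var)3-9 alone counted 417 without HP1 replicate 2, and 96, 67 and 101 without HP1 replicates 1, 3 and 4. Without Su(var)3-9 replicates 1 to 3 it counted 69, 106 and 105, and the probes bound by that protein numbered 812, 993 and 1042.

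**Figure D1:**
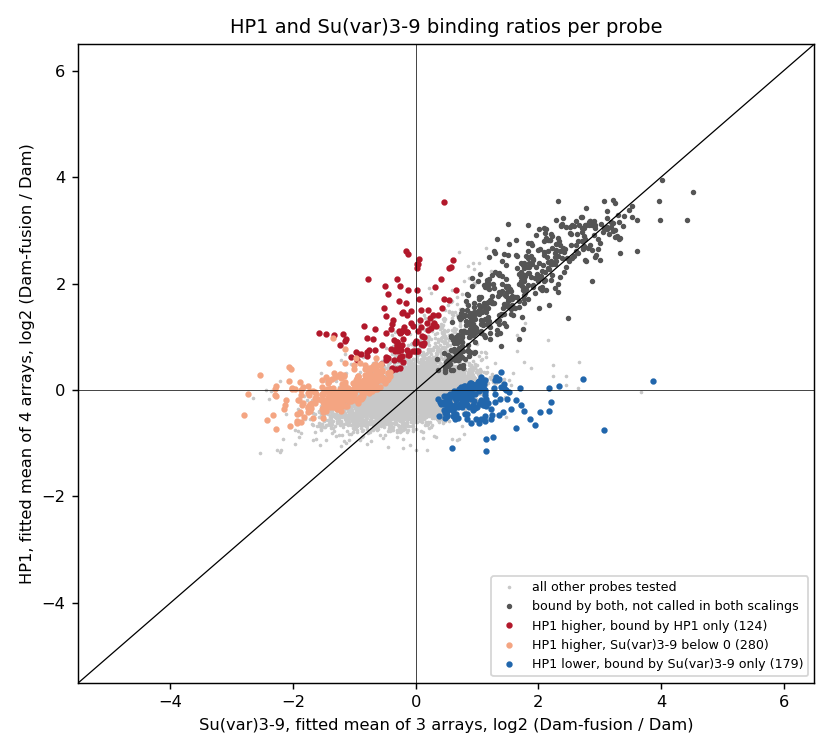
Each point is 1 of 9934 probes, with the fitted mean log2 ratio of Dam-fusion over Dam of Su(var)3-9 (3 arrays) on the x axis and of HP1 (4 arrays) on the y axis, and the diagonal marks equal values. The 124 probes bound by HP1 alone rise above the axis of HP1 near a Su(var)3-9 ratio of 0, the 280 probes with Su(var)3-9 below 0 spread to the left at an HP1 ratio near 0, the 179 probes bound by Su(var)3-9 alone lie to the right, and the probes bound by both follow the diagonal.

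The highest difference lay at the gene of HP1 itself, whose coding sequence the HP1 plasmid also carries. It stood at 3.86, 4.45, 2.94 and 2.86 on the HP1 arrays, against 0.46, 0.43 and 0.46 on the Su(var)3-9 arrays. All 4 arrays labelled HP1 were high at this gene, which is a check of their label and is set apart from the others for that reason. The gene of Su(var)3-9 has no named probe in the table, so the same check was not made for the other group.

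Genes with HP1 and little Su(var)3-9 included a group next to the centromeres of chromosome 2. The gene d4, which encodes a PHD-finger protein of the DPF family, had 3.15, 2.74, 2.57 and 2.00 on the HP1 arrays and -0.13, -0.01 and -0.40 on the Su(var)3-9 arrays. The groups were separated by more than the spread of either, and the difference was 2.78 ± 0.39 on the log2 scale (SE, adjusted p = 4.26e-05). CG17493, the 12th gene from the centromere on 2L, had 2.43, 2.82, 2.44 and 2.50 for HP1 and -0.22, -0.22 and -0.09 for Su(var)3-9, with a difference of 2.68 ± 0.39 (SE, adjusted p = 7.46e-05). Its neighbour CG17490, the 13th, had means of 2.09 ± 0.21 (SD, n = 4) for HP1 and -0.31 ± 0.13 (SD, n = 3) for Su(var)3-9. Nubpl, the 18th gene and a factor for assembly of mitochondrial complex I, had 1.95 ± 0.34 (SD, n = 4) for HP1 and -0.53 ± 0.15 (SD, n = 3) for Su(var)3-9. On 2R, CG17683 reached 2.46 ± 0.28 (SD, n = 4) for HP1 and 0.08 ± 0.18 (SD, n = 3) for Su(var)3-9. The cyclin gene CycK, the 24th gene on 2L, had 0.98 ± 0.25 (SD, n = 4) for HP1 and -0.81 ± 0.26 (SD, n = 3) for Su(var)3-9, a difference of 1.78 ± 0.28 (SE, adjusted p = 0.00021). All 6 genes kept their call in the unscaled fits, whichever array was left out.

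On chromosome 4 the gene with the clearest difference was myo, which encodes myoglianin, a ligand of the TGF-beta family. A probe of it had 2.46, 2.46, 2.21 and 2.04 on the HP1 arrays and -0.25, 0.07 and 0.16 on the Su(var)3-9 arrays. Its difference was 2.27 ± 0.33 (SE, adjusted p = 6.11e-05), and the other probe of myo differed by 1.73 (adjusted p = 0.0017). Rad23, a ubiquitin-binding factor of DNA repair, had 1.64 ± 0.19 (SD, n = 4) for HP1 and -0.17 ± 0.11 (SD, n = 3) for Su(var)3-9. Taf3, a subunit of the general transcription factor TFIID, had 2.44 ± 0.56 (SD, n = 4) for HP1 and 0.61 ± 0.46 (SD, n = 3) for Su(var)3-9 at the probe that passed. At the other Taf3 probe HP1 stood at 2.81 and Su(var)3-9 at 1.63, and the difference of 1.18 did not pass (adjusted p = 0.213). ATPsynbeta, a subunit of the mitochondrial ATP synthase, had 1.86 ± 0.45 (SD, n = 4) for HP1 and 0.58 ± 0.11 (SD, n = 3) for Su(var)3-9, a difference of 1.21 ± 0.24 (SE, adjusted p = 0.0026). The Pax6 homologue toy had probes that disagreed. At one of them HP1 stood at 0.96 ± 0.16 (SD, n = 4) and Su(var)3-9 at -0.68 ± 0.09 (SD, n = 3), and at the other the values were 2.98 ± 0.55 (SD, n = 4) for HP1 and 3.11 ± 0.19 (SD, n = 3) for Su(var)3-9. The toy call was lost without HP1 replicate 1 or 3 or any Su(var)3-9 array, although its difference stayed between 1.60 and 1.69.

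HP1 also stood without Su(var)3-9 at genes far from centromeres and off chromosome 4. Apart from the gene of HP1, the largest of these differences was at CG2736 on 2R, with 2.57, 2.01, 1.81 and 1.94 for HP1 and -0.74, -0.59 and -1.06 for Su(var)3-9. Other fusions were high at CG2736 too, with means of 2.75 for HP3 and 1.36 for HP6, while HP4 had -0.1 and HP5 -0.71. The gene ova, which is needed for transposon silencing in the female germ line, had 2.13, 3.33, 2.11 and 1.88 for HP1 and -0.21, -0.01 and 0.31 for Su(var)3-9. Its difference was 2.34 ± 0.39 (SE, adjusted p = 0.00034). MED15, a subunit of the Mediator complex, had 1.05 ± 0.17 (SD, n = 4) for HP1 and -1.50 ± 0.14 (SD, n = 3) for Su(var)3-9, so that the methyltransferase was below 0 where HP1 was above it. Among genes picked after their values were seen, armi, an RNA helicase of the piRNA pathway, had 0.96, 1.32, 1.16 and 0.92 for HP1 and -0.26, -0.03 and -0.28 for Su(var)3-9, with a difference of 1.24 ± 0.27 (SE, adjusted p = 0.00546). At wde, which encodes the partner of the methyltransferase Setdb1, HP1 had 1.11 ± 0.19 (SD, n = 4) and Su(var)3-9 had 0.07 ± 0.22 (SD, n = 3). That difference of 1.07 ± 0.29 (SE, adjusted p = 0.0212) was lost without HP1 replicate 1 or 3 or Su(var)3-9 replicate 1 or 3, and lay between 1.01 and 1.15 over the 7 fits that left out an array.

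**Figure D2:**
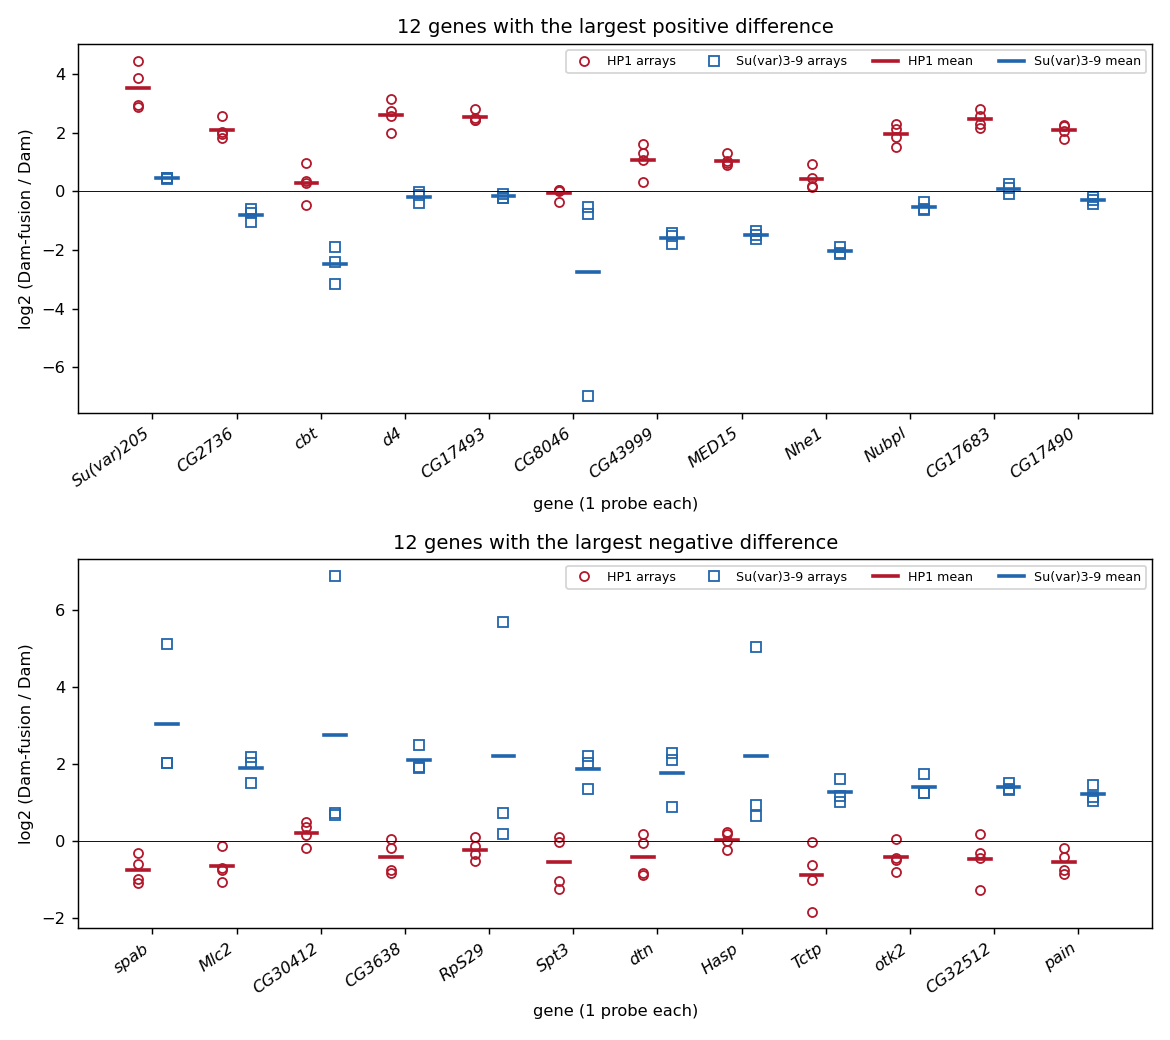
Log2 ratios of Dam-fusion over Dam on each array at the 12 genes with the highest and the 12 with the lowest differences among those called in both scalings with arrays that do not overlap, which is how they were chosen. Circles are the 4 HP1 arrays, squares the 3 Su(var)3-9 arrays and bars their means; the lone squares at CG8046, spab, CG30412, RpS29 and Hasp are Su(var)3-9 replicate 1.

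The largest class of higher calls was one in which HP1 was near 0 and Su(var)3-9 lay below it. Here the ratio of the Su(var)3-9 fusion over Dam was lower than at the median probe of the arrays. At cbt, the gene of the zinc-finger factor cabut, the HP1 arrays had 0.28, -0.47, 0.97 and 0.36 and the Su(var)3-9 arrays -3.16, -1.90 and -2.42, a difference of 2.83 ± 0.38 (SE, adjusted p = 3.61e-05). The sodium-proton exchanger gene Nhe1 had 0.19, 0.15, 0.92 and 0.44 for HP1 and -2.15, -2.11 and -1.89 for Su(var)3-9. Both genes lie toward the telomere of 2L. Picked after their values were seen, the histone chaperone gene asf1 had -0.18 ± 0.44 (SD, n = 4) for HP1 and -1.92 ± 0.20 (SD, n = 3) for Su(var)3-9. The blood cell GATA factor gene srp had 0.30 ± 0.26 (SD, n = 4) for HP1 and -1.26 ± 0.04 (SD, n = 3) for Su(var)3-9, a difference of 1.54 ± 0.39 (SE, adjusted p = 0.0161) that was lost without Su(var)3-9 replicate 1 or 3, with values of 1.45 to 1.66 over the fits that left out 1 array. CG8046 was named by the same rule but rested on 1 array: Su(var)3-9 replicate 1 read -6.98 there and the others -0.52 and -0.78. Without that array its difference was 0.58 (adjusted p = 0.43), and its call was also lost without HP1 replicate 1 or 3 (adjusted p = 0.0841 and 0.0881).

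Genes with Su(var)3-9 and no HP1 lay along the arms. The lowest difference was at spab on 2R, with -0.32, -0.99, -1.09 and -0.59 on the HP1 arrays and 5.12, 2.02 and 2.03 on the Su(var)3-9 arrays. It was -3.82 ± 0.51 (SE, adjusted p = 3.47e-05) and -2.77 in the fit without the array that read highest. Mlc2, which encodes a myosin light chain of muscle, had -0.12, -1.05, -0.69 and -0.75 for HP1 and 1.52, 2.04 and 2.18 for Su(var)3-9. All of its HP1 values were negative, and the difference was -2.59 ± 0.27 (SE, adjusted p = 6.13e-07). Spt3, a subunit of the SAGA coactivator, had 0.10, -1.25, -1.04 and -0.01 for HP1 and 1.35, 2.04 and 2.21 for Su(var)3-9. The growth regulator gene Tctp had -0.88 ± 0.75 (SD, n = 4) for HP1 and 1.27 ± 0.30 (SD, n = 3) for Su(var)3-9. The Wnt receptor gene otk2 had -0.41 ± 0.34 (SD, n = 4) for HP1 and 1.41 ± 0.28 (SD, n = 3) for Su(var)3-9, and the TRP channel gene pain had -0.55 ± 0.30 (SD, n = 4) for HP1 and 1.22 ± 0.21 (SD, n = 3) for Su(var)3-9. These 6 genes kept their call in every unscaled fit that left out 1 array, as did dtn (-2.16, adjusted p = 0.00154) and CG32512 (-1.82, adjusted p = 0.00631).

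At 3 other genes of that group the signal was that of Su(var)3-9 replicate 1. CG30412 had 6.89, 0.72 and 0.69 on the Su(var)3-9 arrays, RpS29 had 5.71, 0.19 and 0.73, and Hasp had 5.06, 0.65 and 0.95. Without that array their differences were -0.49, -0.67 and -0.76 (adjusted p = 0.469, 0.131 and 0.126). RpS29 was lost without HP1 replicate 3 too (adjusted p = 0.0586), and CG30412 without HP1 replicate 1, 3 or 4 (adjusted p = 0.075, 0.113 and 0.0636). The other probe of RpS29 differed by -0.43 (adjusted p = 0.2). For CG3638 the probes disagreed in sign. The one named by the rule differed by -2.44 (adjusted p = 0.00119) and the other by 0.61 (adjusted p = 0.0459).

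Probes bound by both proteins numbered 470 (4.73%), and 447 of them were called in neither direction in the unscaled fit. Their medians were 1.96 for HP1 and 1.52 for Su(var)3-9. The 6 highest included 3 genes next to centromeres, Cht10, Parp1 and p120ctn, and 3 that lie farther out, CG5532, CG2519 and hob. The chitinase gene Cht10 had 4.26, 4.20, 4.03 and 2.39 for HP1 and 6.16, 3.62 and 3.62 for Su(var)3-9. The values of the groups overlap, and the 95% interval of the difference ran from -1.93 to 0.33. Parp1, which encodes a poly(ADP-ribose) polymerase, had 3.21, 3.89, 2.80 and 2.90 for HP1 and 4.52, 3.49 and 3.75 for Su(var)3-9, with an interval from -1.81 to 0.26. For p120ctn, which encodes a catenin of adherens junctions, the means were 3.56 ± 0.49 (SD, n = 4) for HP1 and 2.99 ± 0.14 (SD, n = 3) for Su(var)3-9, with an interval from -0.41 to 1.37. The interval of CG2519 ran from -0.63 to 1.34 and that of hob from -0.93 to 1.44. CG5532 had means of 3.19 ± 0.74 (SD, n = 4) for HP1 and 4.41 ± 2.21 (SD, n = 3) for Su(var)3-9 at one probe, while its other probe read -0.33 for HP1 and -0.15 for Su(var)3-9. Over all probes the half-width of the interval had a median of 0.56. Among the 470 probes it lay wholly within 1 of 0 for 160, and for the rest a larger difference was not excluded by the interval.

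The share of calls differed with position along the chromosomes. Of 60 probes on chromosome 4, 12 were called higher (20%) and 0 lower by limma (5 at an unadjusted p under 0.05), beside 4.28% and 2.07% of all probes. The median there was 1.99, 2.55, 1.71 and 1.62 on the HP1 arrays and 0.96, 1.17 and 0.85 on the Su(var)3-9 arrays, with no overlap. HP1 bound 70% of these probes and Su(var)3-9 bound 61.7%. Among probes of the 100 genes nearest the centromere on each of 5 arms, 40 of 269 were higher and 2 lower, with a median difference of 0.34 beside 0.04 over all probes. Higher calls made up 27% of such probes on 2L, 20% on 2R, 10% on 3L, 11% on 3R and 9.09% on X. The 11 probes of known pericentric genes had 0 calls shared by both scalings, at medians of 3.20 for HP1 and 2.74 for Su(var)3-9. The unscaled fit called 1 of them higher, at RpL15, with HP1 at 0.06 and Su(var)3-9 at -1.0. Its difference was 1.06 (adjusted p = 0.0204, and 0.0589 scaled). That unscaled call was lost without HP1 replicate 1 or Su(var)3-9 replicate 2 or 3. At an unadjusted p under 0.05 limma had 1 of the 11 probes higher and 0 lower. The chromosome 4 calls numbered 7, 11, 5 and 10 without HP1 replicates 1 to 4 and 7, 7 and 5 without Su(var)3-9 replicates 1 to 3. The centromere-proximal calls ranged from 23 without Su(var)3-9 replicate 1 to 52 without HP1 replicate 2, with 27 without HP1 replicate 3 and 24 without Su(var)3-9 replicate 3.

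The difference fell off within the first 100 genes from the centromere. Among the first 50 genes per arm the medians were 1.25 for HP1 and 0.38 for Su(var)3-9, and 19.3% of 145 probes were called higher. From gene 51 to gene 100 the medians were 0.07 for HP1 and -0.11 for Su(var)3-9, and 9.68% of 124 probes were higher. Beyond gene 500 the share was 3.36%. Of 113 probes bound by HP1 alone that have 1 gene, 28.3% were centromere-proximal or on chromosome 4. The share was 5.38% among the higher calls with Su(var)3-9 below 0, 1.39% among those bound by Su(var)3-9 alone and 3.81% among all probes.

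**Figure D3:**
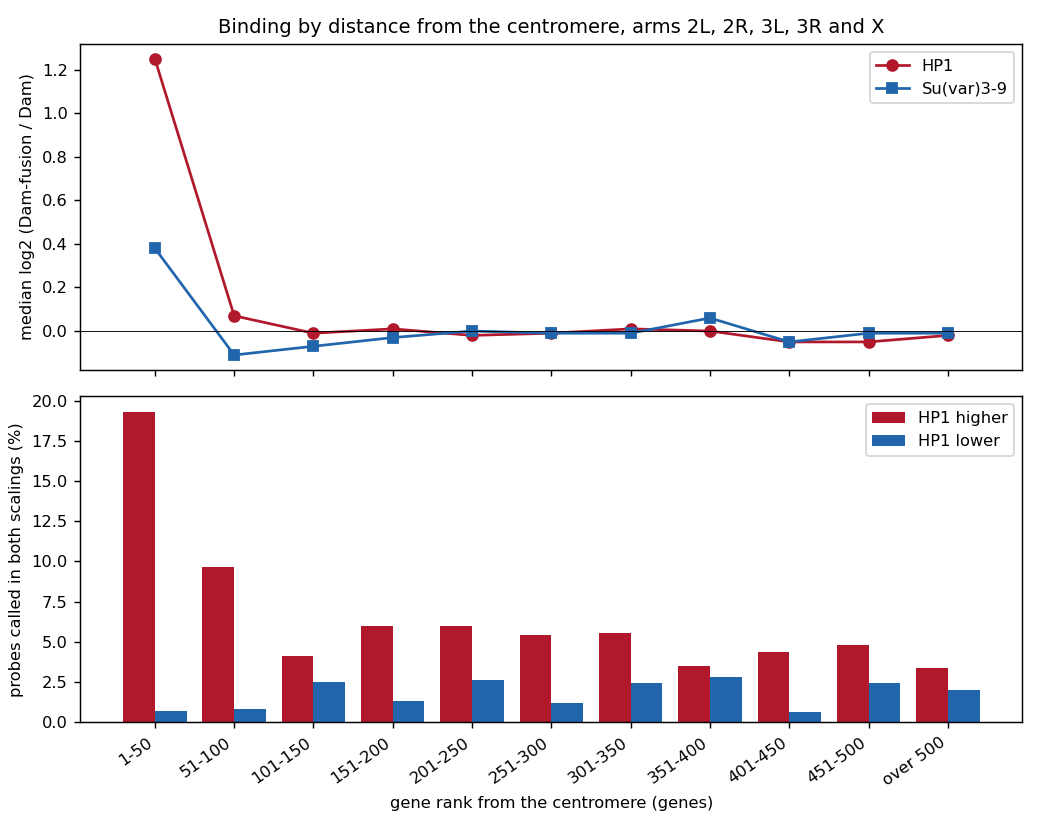
Upper panel, median log2 ratio of Dam-fusion over Dam for HP1 and Su(var)3-9 in bins of 50 genes from the centromere, pooled over 5 arms. Lower panel, percentage of probes called higher or lower for HP1 in both scalings; the first bin has 19.3% higher and 0.69% lower, and the share of higher calls is 3.36% beyond 500 genes.

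Calls at neighbouring genes were counted along the arms, without a test. After a gene called higher the next measured gene was called higher too in 33 of 318 cases (10.4%), beside 4.19% over all genes. After a gene called lower it was 1 of 158 (0.633%), beside 2.09%. Runs of at least 3 genes were found 5 times, all higher. At the telomeric end of 2L the run held Creld, Nhe1 and Sam-S, the gene of S-adenosylmethionine synthetase, with differences of 1.66, 2.49 and 1.66. HP1 stood at 0.32, 0.42 and -0.02 there, and Su(var)3-9 at -1.34, -2.07 and -1.68. Near the centromere of 2R it held CG10465, CG10395 and COX4L, with HP1 at 1.47, 1.71 and 2.68 and Su(var)3-9 at -0.21, 0.06 and 1.14. On chromosome 4 it held the GABA transporter gene Gat, the glutamate receptor gene Ekar and gw, a factor of microRNA silencing, with HP1 at 0.49, 0.31 and 2.38 and Su(var)3-9 at -0.66, -0.45 and 1.13. On X, 4 genes followed each other, with differences of 1.25 at shi, the dynamin gene, 1.08 at CycD, 1.38 at the calcium sensor gene Stim and 0.68 at CG8924. On 3R the run was kra, asl and Rga, with differences of 1.32, 0.78 and 0.77. Their HP1 values were -0.5, 0.38 and 0.32 and those of Su(var)3-9 -1.82, -0.39 and -0.45.

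Lists of genes by function were described by their counts and medians beside those of all probes, and were not tested. The list most shifted toward Su(var)3-9 was that of odorant-binding proteins and chemosensory receptors. Of its 24 probes 5 were called lower (20.8%, beside 2.07%) and 0 higher by limma, also at an unadjusted p under 0.05. Su(var)3-9 bound 62.5% of them and HP1 bound 4.17%. Its median was -0.01, 0.59, -0.13 and -0.49 on the HP1 arrays and 0.60, 0.53 and 0.57 on the Su(var)3-9 arrays, so HP1 replicate 2 lay at the level of Su(var)3-9. Without that array 8 were lower. Without HP1 replicate 3 or 4 or Su(var)3-9 replicate 1 it was 0, without Su(var)3-9 replicate 3 it was 1, and without HP1 replicate 1 or Su(var)3-9 replicate 2 it was 2. The gene Obp56d, an odorant-binding protein, had -0.10, 0.90, -0.14 and -0.74 for HP1 and 0.84, 0.73 and 1.12 for Su(var)3-9 at a probe whose difference was -0.93 (adjusted p = 0.0402). Of the 7 fits that left out an array, only the one without HP1 replicate 2 kept that call, and the differences ran from -1.22 to -0.68.

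Other lists shifted toward Su(var)3-9 were those of immune effectors, with 2 of 22 probes lower (9.09%), serine proteases and serpins, with 4 of 41 (9.76%), and cuticle proteins, with 3 of 74 (4.05%), beside 2.07% of all probes. Higher calls by limma numbered 0, 1 and 0, and at an unadjusted p under 0.05 they numbered 1, 1 and 2. The trypsin gene alphaTry had -0.19 ± 0.40 (SD, n = 4) for HP1 and 0.79 ± 0.37 (SD, n = 3) for Su(var)3-9, a difference of -0.99 ± 0.23 (SE, adjusted p = 0.00863). It was lost without Su(var)3-9 replicate 2 (adjusted p = 0.0682), and ran from -1.14 to -0.77 over the fits that left out an array. Calls in these lists turned on single arrays: over those 7 fits the lower calls ranged from 0 to 6 among immune effectors, from 1 to 4 among serine proteases and from 1 to 9 among cuticle proteins. Mitochondrial ribosomal proteins had 4 of 74 lower, or 0 to 6 with an array left out, and 1 higher, at a median difference of -0.34. Oxidative phosphorylation genes had 3 of 68 each way at -0.30, and cytoplasmic ribosomal proteins 2 of 39 lower and 1 higher at -0.26. Of those 2 lower calls, 1 was the RpS29 probe that was lost without Su(var)3-9 replicate 1. In these 3 lists the median of HP1 replicate 4 lay at -0.36, -0.23 and -0.50 while that of HP1 replicate 2 was 0.14, 0.40 and 0.28, so the HP1 arrays differed among themselves by more than the groups did. The same held for immune effectors, at 0.15, 0.51, -0.08 and -0.29 on the HP1 arrays and 0.42, 0.39 and 0.45 on the Su(var)3-9 arrays. The medians on the HP1 arrays ran from -0.20 to 0.20 for serine proteases and from -0.18 to 0.21 for cuticle proteins, spans that also exceed the median differences of these lists, -0.30 and -0.23.

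Toward HP1, the list of AP-1 and JNK pathway genes had 4 of 17 probes higher (23.5%, beside 4.28%) and 1 lower. There were 2 higher calls without HP1 replicate 1 or 3 or Su(var)3-9 replicate 1. HP1 bound 5.88% of these probes (beside 8.48%), while 41.2% lay below 0 for Su(var)3-9 (beside 17.4%). The list median was 0.06, -0.37, -0.15 and -0.06 on the HP1 arrays. On the Su(var)3-9 arrays it was -0.21, -0.21 and -0.29, so the groups overlapped. The JNK phosphatase gene puc had 0.51, -0.65, 0.21 and -0.05 for HP1 and -2.18, -1.65 and -1.71 for Su(var)3-9, a difference of 1.88 ± 0.32 (SE, adjusted p = 0.000383). Ets21C, a transcription factor gene, had 0.03 ± 0.29 (SD, n = 4) for HP1 and -1.32 ± 0.25 (SD, n = 3) for Su(var)3-9. Cytochrome P450 genes had 7 of 62 higher and 2 lower, although their median difference was -0.12. Neighbours Cyp6a20 and Cyp6a21 stood at 0.24 and 0.25 for HP1 and at -1.48 and -1.30 for Su(var)3-9. Cell cycle and replication genes had 5 of 54 higher, Polycomb and trithorax genes 2 of 21 and heterochromatin factors 3 of 35, with 0 lower by limma in each list and 2, 0 and 0 at an unadjusted p under 0.05. One of the 3 heterochromatin calls is the gene of HP1, and without it 2 of 34 were higher (5.88%, beside 4.28%). The cell cycle calls numbered 1 without HP1 replicate 3 or Su(var)3-9 replicate 1, 2 without HP1 replicate 4 and 3 without HP1 replicate 1 or Su(var)3-9 replicate 2. HP1 bound 5.56% of the cell cycle probes, and 31.5% of them lay below 0 for Su(var)3-9. In the trithorax group ash2 had 0.37 ± 0.08 (SD, n = 4) for HP1 and -0.65 ± 0.19 (SD, n = 3) for Su(var)3-9, a difference of 1.01 ± 0.22 (SE, adjusted p = 0.00586). The lists of tRNA synthetases (30 probes), glutathione S-transferases (22) and ion channel and synaptic genes (51) held 0 limma calls shared by both scalings. The scaled fit alone called 2 ion channel and synaptic probes higher and 1 glutathione S-transferase probe lower. At an unadjusted p under 0.05 in the unscaled fit these lists had 1, 1 and 8 probes higher and 3, 1 and 1 lower. The 20 genes nearest each telomere had 5 of 64 probes higher and 1 lower, genes of region 31 of 2L had 2 of 34 and 1, and initiation and elongation factors had 3 of 45 and 0 (4 at an unadjusted p under 0.05). In the lists of Polycomb targets (20 probes), proteasome genes (39), heat shock genes (20), homeobox and forkhead genes (28) and histone acetyltransferases and deacetylases (13) 1 probe each was higher, and 1 was lower in the first 3 of them. The homeobox and forkhead call was foxo, at -5.11, -0.21 and -0.80 on the Su(var)3-9 arrays, and was lost without replicate 1 of that protein. The lower call of region 31 was Mob3, at 0.33, 3.64 and 0.45 on the Su(var)3-9 arrays, and was lost without replicate 2 of that protein. The median difference of the Polycomb targets was -0.06 unscaled and 0.19 scaled.

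**Figure D4:**
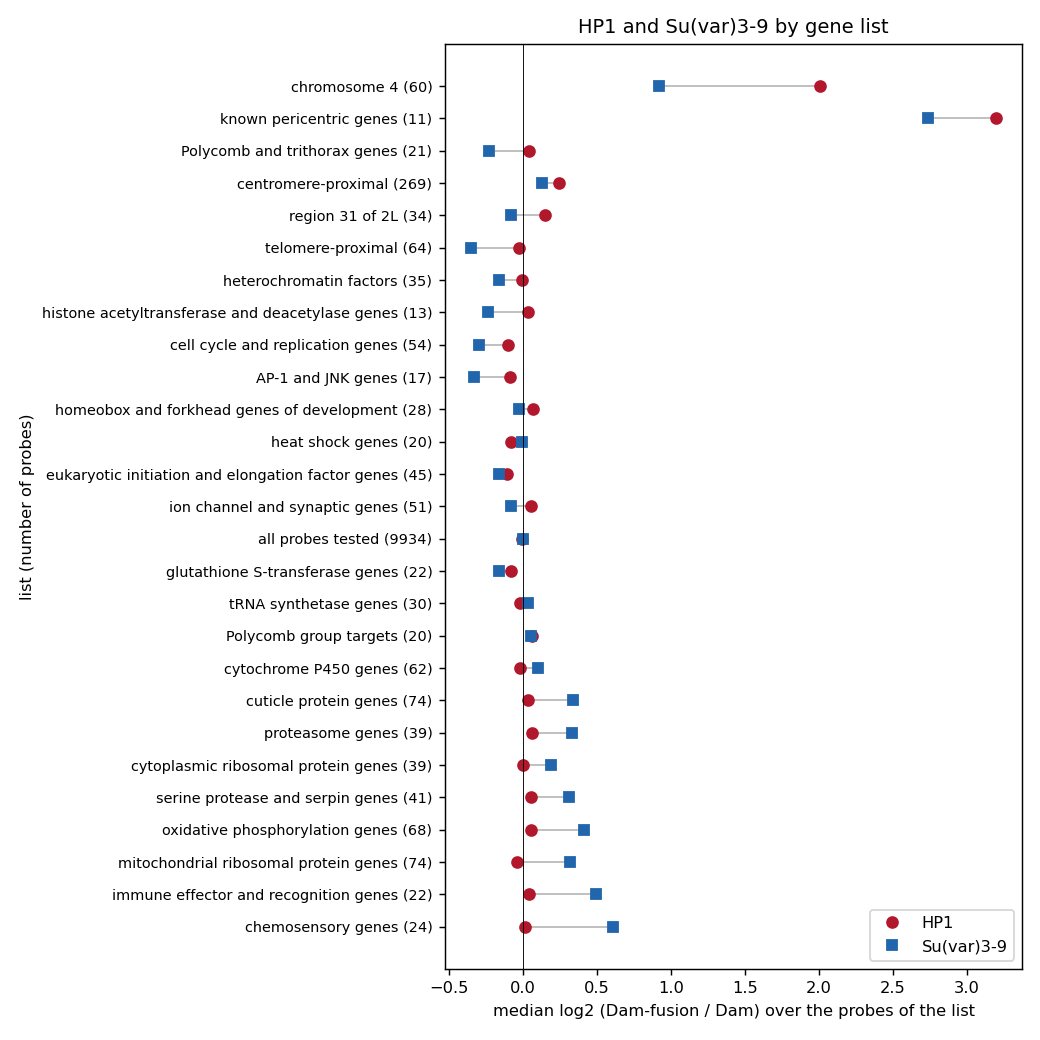
Median log2 ratio of Dam-fusion over Dam over the probes of each list, for HP1 (circles) and Su(var)3-9 (squares), ordered by the median of the difference, with the number of probes after each name. Chromosome 4 has medians of 2.01 for HP1 and 0.92 for Su(var)3-9, and chemosensory genes have 0.01 for HP1 and 0.61 for Su(var)3-9.

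The probes are cDNA clones, and their ID prefixes name the library of origin, as background of the Drosophila clone collections. Clones from testis (AT) had 1.55% higher and 4.31% lower calls among 904 probes, and Su(var)3-9 bound 29% of them while HP1 bound 6.75%. All probes had 4.28% higher and 2.07% lower calls, with 15.8% bound by Su(var)3-9 and 8.48% by HP1. Clones of the RE and RH libraries had 2.91% and 2.18% higher and 3.4% and 2.32% lower calls among 2030 and 734 probes, and GH clones had 4.78% higher and 0.903% lower among 1883. Clones from Schneider cells (SD), another embryonic cell line, had 6.69% higher and 0.402% lower calls among 747, and 28% lay below 0 for Su(var)3-9, beside 17.4% of all probes. Embryo clones (LD) had 5.82% higher and 1.05% lower among 2476. A set of 30 unnamed probes that share an ID prefix had 15 lower and 0 higher limma calls, with 0 higher also at an unadjusted p under 0.05, and medians of -0.42, 0.33, -0.37 and -0.34 on the HP1 arrays and 0.69, 0.83 and 1.00 on the Su(var)3-9 arrays.

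The other fusions differed between the classes. At the 124 probes bound by HP1 alone, HP6 had a median of 0.60, HP3 0.30, HP4 0.14 and HP5 -0.01, and HP6 was above 0 at 94.4% of them against 49.5% of all probes. At the 280 probes with Su(var)3-9 below 0, HP4 and HP5 stood at -0.74 and -0.79 and Jra, an AP-1 transcription factor used as a protein outside heterochromatin, stood at 0.42. At the 179 probes bound by Su(var)3-9 alone HP5 had 0.41, HP4 0.32, HP6 0.22, HP3 0.14 and Jra -0.11. At the 470 probes bound by both, HP4 had 1.91, HP6 1.64, HP5 1.48 and HP3 0.78, with Jra at -0.27. Across all probes, as a description, the HP1 minus Su(var)3-9 difference had Spearman correlations of -0.499 with HP5 and -0.4 with HP4. They were -0.26 with HP6, -0.256 with HP3 and 0.211 with Jra. For HP3 the correlation was -0.305 without replicate 2 of that protein. For HP6 it was -0.064 without replicate 3 of that protein, an array that stood apart, and the median of HP6 at the probes bound by HP1 alone was 0.65 without it.

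**Figure D5:**
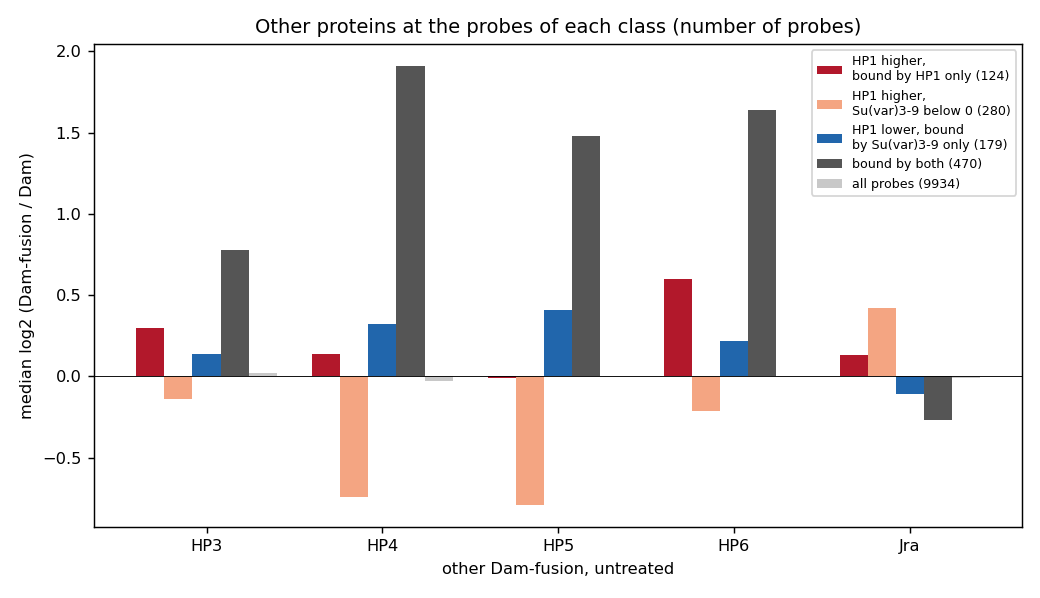
Bars show the median log2 ratio of Dam-fusion over Dam of the 5 other untreated fusions at the probes of each class, with the number of probes in the legend. Probes bound by HP1 alone have HP6 at 0.60 and HP5 at -0.01, and probes with Su(var)3-9 below 0 have HP5 at -0.79 and Jra at 0.42.

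Close to the threshold the values were alike in size. The 5 probes just inside it differed by 0.69 to 0.99 on the log2 scale and the 5 just outside by 0.72 to 1.31, with SEs of 0.22 to 0.31 inside and 0.23 to 0.42 outside.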

How the data were processed

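DamID log ratios of Dam-fusion over Dam were used as deposited by the authors and read as log2 values, since the labels name neither the base of the logarithm nor the scanner, background correction or normalization. The table held 9993 cDNA probes on 35 arrays in 11 groups, with 434 values missing (0.124%). Of the probes 8682 had 1 gene, 298 had several and 1013 were unnamed, and 8539 were placed by a RefSeq gene table of Release 6. Gene order in that table gave the distance from centromeres, and a probe was located through its gene.

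The median of every array was set to 0. A limma 3.58.1 model in R 4.3.3 was fitted to all 35 arrays with a mean per group and a dye term, leaving 23 residual degrees of freedom and 6.91 prior ones. A probe with fewer than 2 values in any group was left out, so 9934 were tested and 59 were not. P-values were two-sided and adjusted by Benjamini-Hochberg over all of them, with a threshold of 0.05. The second fit scaled each array to a median absolute deviation of 0.305. The fusion was labelled Cy3, Cy5, Cy3 and Cy5 on the HP1 arrays and Cy3, Cy3 and Cy5 on the Su(var)3-9 arrays, so the dyes were not fully balanced.

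Genes were named by rule: the 12 highest and 12 lowest differences among probes called in both scalings with 1 gene and no overlap between groups, the 8 highest HP1 means and the 8 highest Su(var)3-9 means among those bound by that protein alone, the 6 highest bound by both, and called members of the lists. The genes armi, asf1, srp and toy were chosen after their values were seen. Members, lists and tests were chosen with earlier results of these data known. A planned count of the Dam target in promoters was not run, as promoter sequences were not used here. Alternatives changed scaling, centring, dye term, arrays, weights, missing values, threshold and a replicate block. In data simulated for this comparison on 9934 probes, 45 of 100 changes of size 1 and 100 of 100 of size 2 on the log2 scale were recovered, with 7 false among 152 calls. The simulated noise was normal, with the same spread on all arrays, and calls came from the unscaled fit alone. The real arrays differed in spread and held extreme values, so these rates do not carry over to the calls reported here. The number of arrays limits the precision.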

Additional observations from a re-analysis of the deposited data

Results flagged for a closer look

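At 6 of the 38 named genes, 1 of the 4 HP1 arrays lay far from the other 3, in that its gap to the nearest one exceeded Dixon's 95% critical value as a share of their whole range. Chance gives this in about 1 of 20 groups. The Su(var)3-9 group, with 3 arrays, was not examined in this way. HP1 replicate 2 was the high array at p120ctn, at 4.29 against 3.33 for the next (0.952 of the range), at CG17478, at 3.05 against 2.12 (0.848), and at ova, at 3.33 against 2.13 (0.833). HP1 replicate 4 was the low array at Cht10, at 2.39 against 4.03 (0.873), at CG5532, at 2.10 against 3.39 (0.839), and at CG8046, at -0.38 against 0.00 (0.9).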

How the results depend on the processing

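In the unscaled fit 521 probes were higher and 224 lower. Scaling the arrays gave 358 lower and quantile normalization 420. Without HP3 replicate 2 and HP6 replicate 3, which belong to neither group compared, 688 were higher and 264 lower. The fit on the 7 arrays alone gave 233 higher and 43 lower, array weights 1442 and 884, an adjusted p under 0.01 gave 174 and 51, and leaving out 1 array 203 to 797 and 82 to 508. Of calls made in both scalings there were 207 higher and 38 lower on the 7 arrays, 664 and 384 with weights, 126 and 48 under 0.01, and 158 to 629 and 78 to 460 with an array left out. The class bound by HP1 alone counted 197 with weights, 50 under 0.01 and 61 to 126 with an array left out. The class bound by Su(var)3-9 alone counted 38 on the 7 arrays, 349 with weights, 36 under 0.01 and 67 to 417 with an array left out. Su(var)3-9 bound 2534 probes with weights, 902 under 0.01 and 812 to 1642 with an array left out, while the 842 probes bound by HP1 stayed within 1.5 times that count in each alternative run. The cause of these shifts was not tested.

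With the replicate number as a block, 436 probes were higher and 175 lower, and 386 and 166 in both scalings. Samples with the same number did not deviate together across probes (r of 0.032, -0.057 and -0.026), so the numbers were not taken as pairs.

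Of 448 differences of 28 named genes under these alternatives, 432 kept their direction and their call, 16 lost the call and 0 reversed. The 16 belonged to CG8046, CG30412, RpS29 and Hasp, which were also lost in the fit on the 7 arrays (adjusted p = 0.309, 0.324, 0.277 and 0.233). These 28 were chosen as the most extreme of the calls, so the counts are no measure of how firm other calls are. At toy, wde, srp, Obp56d, alphaTry, foxo and Mob3, outside the 28, the call was lost without at least 1 of the arrays. Chromosome 4 had 5 to 17 higher calls, centromere-proximal probes 22 to 64 and chemosensory genes 0 to 8 lower calls over the alternatives. Of the higher calls that passed in all 7 unscaled fits with an array left out, 5 were on chromosome 4 and 25 near centromeres. No signal over background was used here, so dim spots could not be told from bright ones.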
